A study of Mus musculus with 6 samples.

Results

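The lysyl oxidase family and the enzymes that prepare its collagen substrate were followed in EGFP+ cells sorted from pressure-overloaded mouse hearts. The 8 genes, chosen by symbol, were *Lox*, *Loxl1*, *Loxl2*, *Loxl3*, *Loxl4*, *Bmp1*, *Pcolce* and *Pcolce2*. All 8 were found among the 28987 genes of the deposited table, and all 8 were among the 15109 genes tested. The 6 libraries came from male mice that carried MerCreMer, a tamoxifen-activated Cre recombinase, knocked into the *Postn* locus together with the Rosa26 eGFP reporter (R26eGFP). All mice received tamoxifen, by the labels 100 mg/kg by intraperitoneal injection and 40 mg/kg in chow, and all underwent transverse aortic constriction (TAC, a ligature around the aortic arch) at 8 to 10 weeks of age. GFP+ ventricular cells were collected 4 weeks later. The 3 control libraries carried no further allele by their labels, whereas the 3 libraries labelled Hsp47-deleted came from mice in which *Hsp47*, encoding a collagen chaperone of the endoplasmic reticulum, was also flanked by loxP sites. Because the reporter is turned on by Cre from the *Postn* locus, the sort takes only cells that have expressed *Postn*, and both groups carry the altered *Postn* allele. Sequencing run was partly tied to group: the first run held 2 controls (replicates 3 and 4), whereas the second held the remaining control (replicate 2) with the 3 Hsp47-deleted libraries. Values are given in the order of the replicate numbers, with Hsp47-deleted replicate 1 first.

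Fibrillar collagens leave the cell as procollagens whose end propeptides must be removed before fibrils can form. Bmp1, a secreted metalloproteinase, removes the C-terminal propeptide, and the enhancer proteins Pcolce and Pcolce2 bind that propeptide and speed its removal. Lox and Loxl1 to Loxl4 are secreted copper enzymes that oxidize lysine residues of collagen and elastin, which then condense into the covalent crosslinks that stiffen a scar. Bmp1 also cleaves the Lox propeptide, so that proteinase and oxidase work in sequence.

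Among the family, *Loxl3* separated the groups most clearly. It was higher in every Hsp47-deleted library than in any control library, by 1.82 on the log2 scale (standard error 0.31), which is a 3.54-fold difference, and it was 1.61 above the second-run control alone. *Lox*, *Loxl1*, *Bmp1*, *Pcolce* and *Pcolce2* also had higher means in the Hsp47-deleted libraries, by 1.03 to 1.71, but *Loxl1*, *Bmp1* and *Pcolce* lay close to the control of the second run. *Loxl2* had nearly the same mean in both groups, and *Loxl4* was low throughout. No member passed a Benjamini-Hochberg (BH) adjusted limma p of 0.05 over all tested genes. The smallest adjusted p of the family was 0.0864, for *Loxl3*.

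**Figure D1:**
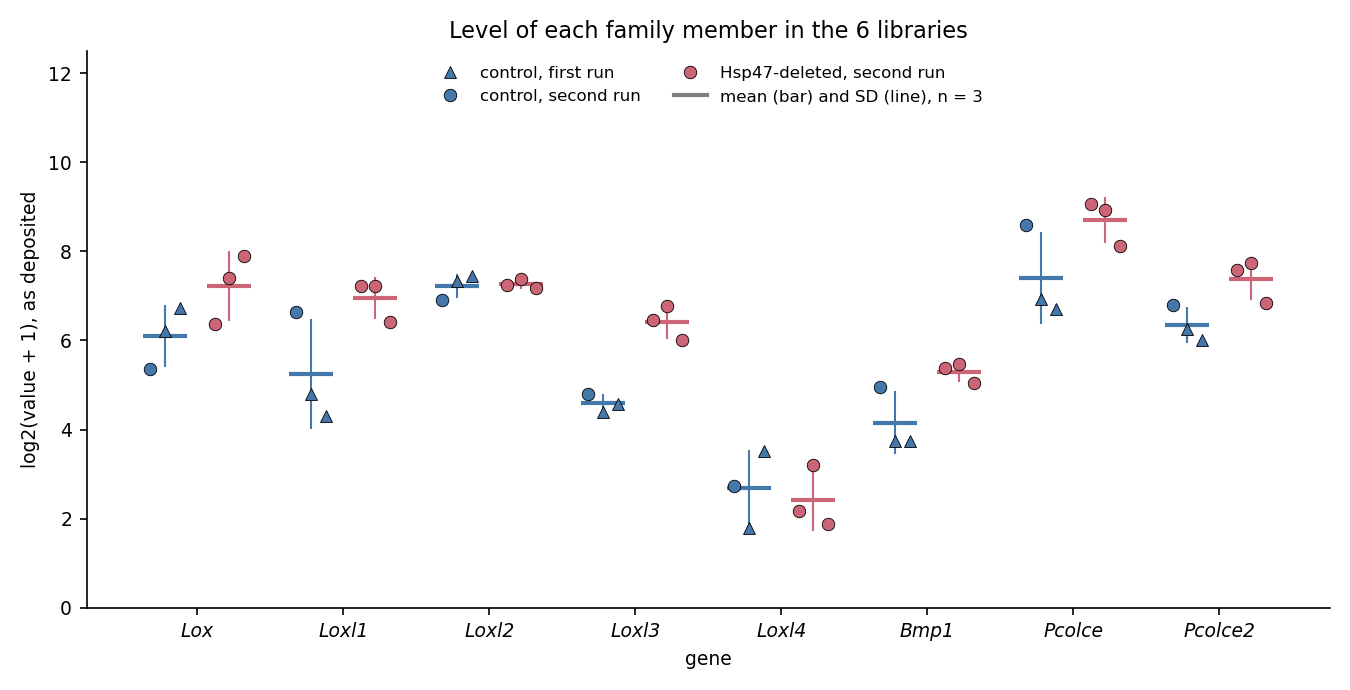
Level of each of the 8 genes as log2(value + 1) (vertical axis) in the 3 control and 3 Hsp47-deleted libraries, with triangles for the first sequencing run and circles for the second, a horizontal bar for each group mean and a vertical line for the SD. *Loxl3* separates the groups, from 4.39 to 4.80 in controls and from 6.01 to 6.77 in Hsp47-deleted libraries. For *Loxl1*, *Bmp1* and *Pcolce* the second-run control lies nearer to the Hsp47-deleted mean than to the mean of the other controls. The same holds by a narrow margin for *Pcolce2* and *Loxl2*.

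The values are log2(value + 1) as deposited by the authors. The linear unit is not named, so the number of reads behind a value is unknown and no counting interval is given. Undoing the log2 gave library sums from 690499 to 855404. The median log2 difference of all 15109 tested genes was 0.35 rather than 0, and -0.060 after each library was centred on its median. Control replicate 2 had a Pearson r of 0.872 to 0.936 with the Hsp47-deleted libraries across the tested genes and of 0.761 and 0.827 with the other controls. The RNA of *Serpinh1*, the gene of Hsp47, differed by only 0.072 between the groups (limma, BH-adjusted p = 0.947) and by -0.87 from the second-run control, so the groups are named by their labels. The paper reports loss of the Hsp47 protein by Western blot of sorted EGFP+ cells. Which exons the *Serpinh1* reads came from was not tested. Fibroblast markers dominated every library, with linear values of 10 genes, *Postn* and collagen chains included, summing to 9381 to 12751 in controls and 15346 to 16981 in Hsp47-deleted libraries. Against this, 8 cardiomyocyte markers summed to 46.7 and 96.7 in the first run and to 171 to 285 in the second, 7 endothelial markers to 87.8 to 217 in all libraries, and 7 mural markers to 115 to 289. The 8 leukocyte markers summed to 37.9 and 80.8 in the first run and to 104 to 146 in the second, with *Ptprc*, the common leukocyte antigen, at 0 in all 6 libraries. The cardiomyocyte and leukocyte sums moved with the run, as *Loxl1*, *Bmp1* and *Pcolce* did. So did the endothelial genes *Pecam1*, *Cdh5*, *Kdr*, *Tie1* and *Emcn*, each lower in both first-run controls than in any second-run library. *Tek* and *Vwf*, of the same list, did not. Cardiomyocyte *Actc1* and leukocyte *Cd68* and *Itgam* did not either, and *Itgam* was higher in both first-run controls (3.01 and 3.94) than in any second-run library (2.05 to 2.91). Fibroblast markers showed the pattern too: *Tcf21*, *Thy1*, *Dcn*, *Vim*, *Postn*, *Col1a1* and *Col1a2* did, whereas *Pdgfra*, *Col3a1* and *Lum* did not. Of the mural list only *Des* did. The part of any cell type in the values of *Loxl1*, *Bmp1* and *Pcolce* was not tested. In sorted bulk samples, fewer cells of a type and less RNA per cell cannot be told apart, and the p-values measure only the spread between these 6 libraries.

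*Loxl3* (ENSMUSG00000000693, chromosome 6 from 83034173 to 83052562 on the plus strand, GRCm38) encodes an oxidase of the branch with scavenger receptor domains. Its log2 level was 4.80 in the second-run control, 4.39 and 4.57 in the first-run controls, and 6.45, 6.77 and 6.01 in the Hsp47-deleted libraries. The lowest Hsp47-deleted library was above the highest control, and the 3 controls lay close together whatever their run. The means were 4.59 ± 0.21 and 6.41 ± 0.38 (SD, n = 3 each), and the 95% interval of the difference ran from 1.11 to 2.54. By p-value it was number 71 of the 15109 genes tested (limma, BH-adjusted p = 0.0864), and its difference exceeded that of 97.1% of tested genes. The exact two-sided permutation test gave 0.10, the smallest p that 3 libraries against 3 allow. With run as a covariate, which makes the estimate equal to the difference from the second-run control, the difference was 1.61 with an interval from 0.69 to 2.53 (limma, BH-adjusted p = 0.334). Over the 17 alternative settings it stayed between 1.41 and 2.02. The adjusted p was under 0.05 only without control replicate 2 (0.00955), where sequencing run and label coincide, and the lowest value elsewhere was 0.0829.

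*Loxl3* shares 535 of its exonic bases (11.6%) with *Htra2*, a mitochondrial protease gene on the opposite strand. The libraries were made with a kit that does not mark strand, so reads from those bases cannot be assigned to a gene by strand. *Htra2* was at 3.95 in the second-run control, 2.53 and 2.71 in the first-run controls, and 4.64, 4.63 and 4.36 in the Hsp47-deleted libraries. It was thus higher in the Hsp47-deleted libraries without overlap too, by 1.48 (standard error 0.42; limma, BH-adjusted p = 0.274). How the shared bases were divided between these genes was not tested, and the *Loxl3* value is uncertain to that extent.

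*Lox* (ENSMUSG00000024529, chromosome 18 from 52516067 to 52529867, minus strand), which encodes the founding oxidase of the family, varied within both groups. Its log2 level was 5.35 in the second-run control, 6.20 and 6.73 in the first-run controls, and 6.36, 7.40 and 7.90 in the Hsp47-deleted libraries. The Hsp47-deleted replicate with the least *Lox* lay below the highest control, so the groups overlapped. The Hsp47-deleted mean was 1.13 higher (6.09 ± 0.69 against 7.22 ± 0.78, SD, n = 3 each; limma, BH-adjusted p = 0.334). In contrast to *Loxl1*, the second-run control held the least *Lox* of all libraries, and all 3 Hsp47-deleted libraries were above it, by 1.87 on average (interval 0.50 to 3.24; run as a covariate, limma, BH-adjusted p = 0.603). The paper reports *Lox* as induced in Hsp47-deleted EGFP+ cells by reverse transcription PCR (RT-PCR), the same direction as the means here.

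*Loxl1* (ENSMUSG00000032334, chromosome 9 from 58287738 to 58313186, minus strand), the oxidase best known for elastic fiber upkeep, showed the widest spread among controls. Its log2 level was 6.64 in the second-run control, 4.80 and 4.30 in the first-run controls, and 7.22, 7.23 and 6.41 in the Hsp47-deleted libraries. The second-run control exceeded Hsp47-deleted replicate 3 and stood 2.09 above the mean of the first-run controls. The pooled difference was 1.71 (standard error 0.60; limma, BH-adjusted p = 0.294), whereas that from the second-run control was 0.32, with an interval from -0.73 to 1.36. Without control replicate 2 the difference was 2.40 (limma, BH-adjusted p = 0.00777), but there the run and the label coincide.

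*Loxl2* (ENSMUSG00000034205, chromosome 14 from 69609068 to 69695834, plus strand) had nearly the same mean in both groups. It was at 6.92 in the second-run control, 7.32 and 7.43 in the first-run controls, and 7.24, 7.37 and 7.17 in the Hsp47-deleted libraries. The groups overlapped fully, with means of 7.22 ± 0.27 and 7.26 ± 0.10 (SD, n = 3 each). The difference of 0.038 had an interval from -0.62 to 0.69 (limma, BH-adjusted p = 0.959), turned to -0.38 when libraries were centred, and was 0.35 against the second-run control. Part of its sequence is not unique: of 5358 stretches of 31 bases in its transcripts, 43.3% also occur in *Gm21451*, an unprocessed pseudogene on the same chromosome (69390854 to 69480287). *Gm21451* was not analysed here, and how the authors' counting divided reads between the copies is not given in the sources used here, so the level of *Loxl2* is uncertain.

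*Loxl4* (ENSMUSG00000025185, chromosome 19 from 42593982 to 42612813, minus strand) was the lowest member in all 6 libraries. Its level was 2.73 in the second-run control, 1.80 and 3.51 in the first-run controls, and 2.18, 3.21 and 1.88 in the Hsp47-deleted libraries. The groups overlapped, and the difference of -0.26 was smaller than its standard error of 0.54 (limma, BH-adjusted p = 0.830). The sign of so small a difference was not stable: it was 0.010 without Hsp47-deleted replicate 3 and 0.16 without control replicate 4.

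*Bmp1* (ENSMUSG00000022098, chromosome 14 from 70474558 to 70520234, minus strand), the procollagen C-proteinase, was at 4.96 in the second-run control, 3.74 and 3.74 in the first-run controls, and 5.39, 5.47 and 5.04 in the Hsp47-deleted libraries. The groups did not overlap, but the second-run control came close to the lowest Hsp47-deleted library. The difference was 1.15 (4.15 ± 0.71 against 5.30 ± 0.23, SD, n = 3 each; limma, BH-adjusted p = 0.292) and 0.33 against the second-run control (interval -0.49 to 1.16).

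The enhancers of Bmp1 both had higher means in the Hsp47-deleted libraries. *Pcolce* (ENSMUSG00000029718, chromosome 5 from 137605103 to 137613784, minus strand) was at 8.58 in the second-run control, 6.93 and 6.70 in the first-run controls, and 9.07, 8.94 and 8.11 in the Hsp47-deleted libraries. The second-run control exceeded the lowest Hsp47-deleted library, and the pooled difference of 1.30 (standard error 0.54; limma, BH-adjusted p = 0.323) came down to 0.12 against that control (interval -0.88 to 1.13). *Pcolce2* (ENSMUSG00000015354, chromosome 9 from 95637601 to 95698096, plus strand) was at 6.79 in the second-run control, 6.25 and 6.01 in the first-run controls, and 7.58, 7.74 and 6.84 in the Hsp47-deleted libraries. Its groups did not overlap, though only narrowly. The difference was 1.03 with a standard error of 0.36 (limma, BH-adjusted p = 0.293), and 0.60 relative to the second-run control (interval -0.39 to 1.58). Whether the enhancers differ from each other in this was not tested.

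**Figure D2:**
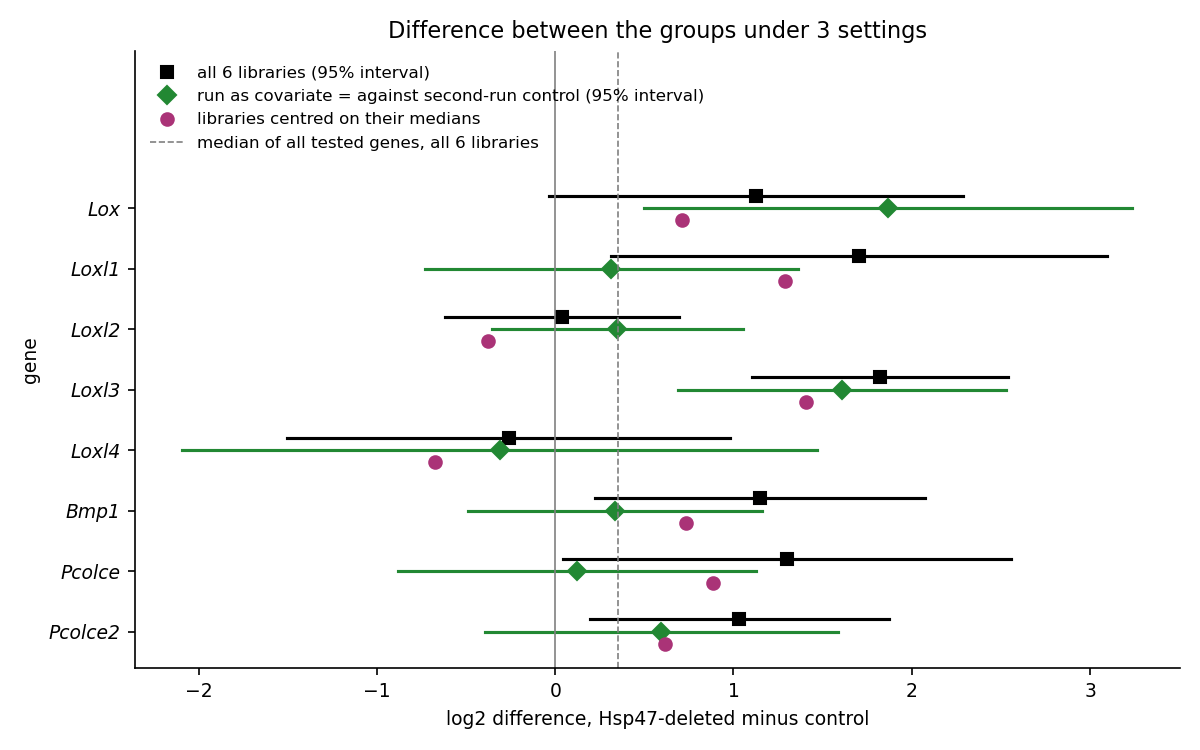
Log2 difference of each gene, Hsp47-deleted minus control (horizontal axis), from all 6 libraries (black squares, 95% interval), with run as a covariate (green diamonds, 95% interval) and with centred libraries (purple circles). Only *Loxl3* and *Lox* have a run-adjusted interval above 0, while *Loxl1*, *Bmp1* and *Pcolce* move from 1.15 or more to 0.33 or less, and the dashed line marks the median of all tested genes, 0.35.

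The members were chosen with earlier results of these data known, so the counts below describe them and do not test the family. Read as a list, 7 of the 8 members had a difference above 0, against 74.5% of all tested genes, and the median difference was 1.14, or 0.78 once the all-gene median is subtracted. After centring, 6 were above 0, with *Loxl2* and *Loxl4* below, and the median was 0.72. At an unadjusted limma p under 0.05, 5 members (*Loxl1*, *Loxl3*, *Bmp1*, *Pcolce* and *Pcolce2*) were higher and 0 lower, against 14.5% and 0.755% of tested genes, and at a BH-adjusted p under 0.05 the count was 0 of 8, against 0.245%. The groups did not overlap for 3 members, all higher in Hsp47-deleted libraries (*Loxl3*, *Bmp1* and *Pcolce2*), against 18.3% of tested genes. With run as a covariate, 2 members (*Lox* and *Loxl3*) were higher at an unadjusted p under 0.05, where 5.46% of tested genes were. All 3 Hsp47-deleted libraries lay above the second-run control for 5 members (*Lox*, *Loxl2*, *Loxl3*, *Bmp1* and *Pcolce2*), against 46.7% of tested genes, and the family median in that comparison was 0.34, close to the 0.29 of all genes. Without control replicate 2, 5 members passed the BH-adjusted p (*Loxl1*, *Loxl3*, *Bmp1*, *Pcolce* and *Pcolce2*), against 16.4% of tested genes that were higher.

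In controls the mean log2 levels ran from *Pcolce* (7.40) through *Loxl2* (7.22), *Pcolce2* (6.35), *Lox* (6.09), *Loxl1* (5.24), *Loxl3* (4.59) and *Bmp1* (4.15) to *Loxl4* (2.68). Neighbours in this order had overlapping ranges except *Loxl2* with *Pcolce2* and *Bmp1* with *Loxl4*. In Hsp47-deleted libraries the order was *Pcolce* (8.71), *Pcolce2* (7.38), *Loxl2* (7.26), *Lox* (7.22), *Loxl1* (6.95), *Loxl3* (6.41), *Bmp1* (5.30) and *Loxl4* (2.42), so that *Loxl2* and *Pcolce2* exchanged places. Here *Pcolce*, *Bmp1* and *Loxl4* were separated from their neighbours, and the 5 genes from *Pcolce2* to *Loxl3* each overlapped the next. Whether the linear unit is corrected for transcript length is not stated, and the longest coding transcripts run from 1626 bases (*Pcolce*) to 5316 bases (*Loxl2*), so these are orders of deposited values. The place of *Pcolce* at the top of the controls rested on the second-run control, since *Loxl2* was highest in both first-run controls.

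Because shares within a library do not depend on the scaling between libraries, the makeup of the 5 oxidases was also compared. Their linear values summed to 290.4 in the second-run control, 281.1 and 328.8 in the first-run controls, and 469.4, 597.8 and 530.6 in the Hsp47-deleted libraries. The sums did not overlap, and their means, 300.1 ± 25.3 and 532.6 ± 64.2 (SD, n = 3 each), stood in a ratio of 1.77, or 1.83 against the second-run control (exact two-sided permutation p = 0.10, the smallest possible). This sum, unlike the shares, does depend on the scaling.

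The share of *Loxl2* was 41.2% in the second-run control, 56.6% and 52.3% in the first-run controls, and 32.1%, 27.6% and 26.9% in the Hsp47-deleted libraries. It was thus lower in each Hsp47-deleted library (50.1% ± 8.0 against 28.9% ± 2.8, SD, n = 3 each; exact permutation p = 0.10, BH-adjusted over the 5 shares 0.25), although its own level was nearly the same. The share of *Loxl3* was 9.25% in the second-run control, 7.09% and 6.94% in the first-run controls, and 18.4%, 18.1% and 12.0% in the Hsp47-deleted libraries. It was higher without overlap (7.76% ± 1.29 against 16.1% ± 3.6, SD, n = 3 each; exact permutation p = 0.10). *Lox* and *Loxl1* together were the variable remainder. *Lox* made up 13.7% to 31.9% in controls and 17.3% to 44.8% in Hsp47-deleted libraries, and *Loxl1* made up 33.9% in the second-run control, 9.56% and 5.68% in the first-run controls, and 15.8% to 31.5% in Hsp47-deleted libraries. Against the second-run control, the mean share of *Loxl1* in Hsp47-deleted libraries differed by -9.81 percentage points, the opposite direction to the pooled comparison, and that of *Loxl2* by -12.4 points. *Loxl4* stayed at 0.51% to 3.17%.

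**Figure D3:**
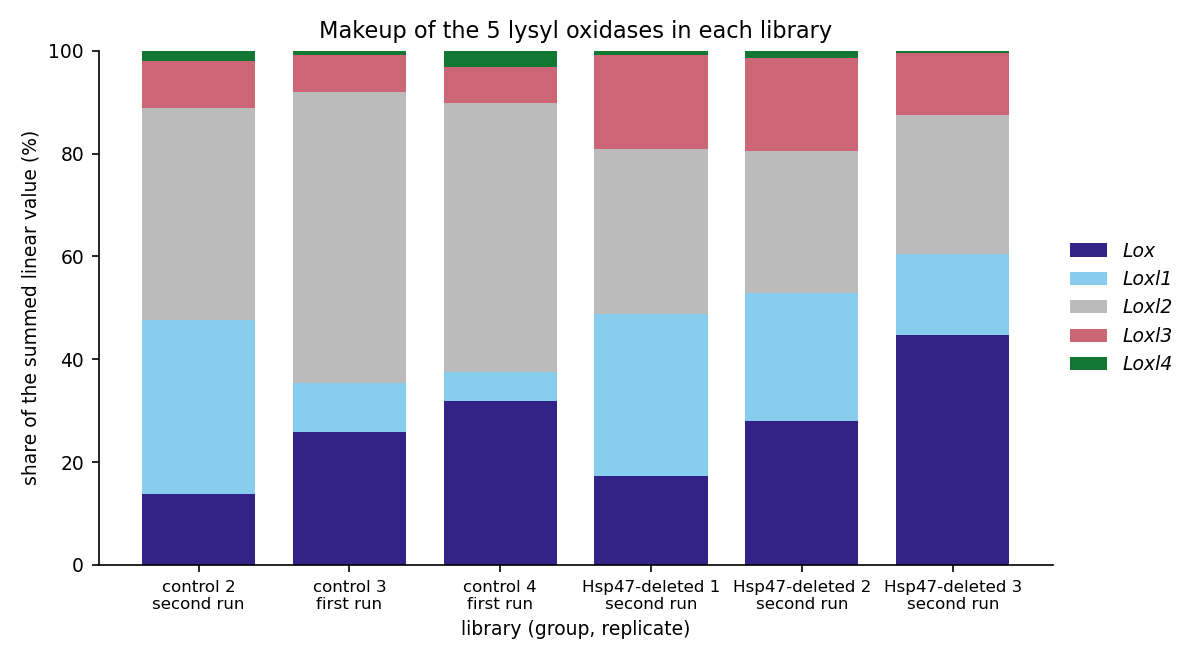
Share of each of the 5 oxidases in their summed linear value (vertical axis, %) in each library (horizontal axis). *Loxl2* takes 41.2% or more in every control and 32.1% or less in every Hsp47-deleted library, *Loxl3* goes from at most 9.25% to at least 12.0%, and *Loxl1* is small only in the 2 first-run controls.

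The enzymes were next set against their substrate within each library, as the log2 level of a member minus the mean log2 level of *Col1a1*, *Col1a2* and *Col3a1*, the chains of collagen types I and III. That mean itself was 9.01 ± 0.18 in controls and 9.45 ± 0.34 in Hsp47-deleted libraries (SD, n = 3 each), a difference of 0.44 (exact permutation p = 0.20). The paper, in contrast, reports lower *Col1a1* and *Col3a1* mRNA in Hsp47-deleted EGFP+ cells by RT-PCR. Relative to the collagen mean, *Loxl3* lay at -4.41 in the second-run control, -4.50 and -4.36 in the first-run controls, and -3.03, -3.02 and -3.09 in the Hsp47-deleted libraries. The spread within each group was far smaller than for the level itself (SD 0.073 and 0.036), and the difference was 1.38 with all controls and 1.37 with the second-run control alone (exact permutation p = 0.10, BH-adjusted over the 8 members 0.32). *Pcolce2* was the other member without overlap, at -2.66 ± 0.25 and -2.07 ± 0.18 (SD, n = 3 each), a difference of 0.59, or 0.35 against the second-run control. The other 6 overlapped, with differences from -0.70 (*Loxl4*) to 1.26 (*Loxl1*). Against the second-run control, the differences relative to the collagens lay between -0.12 and 0.11 for *Loxl1*, *Loxl2*, *Bmp1* and *Pcolce*, and at 1.63 for *Lox*. An exact test of 3 libraries against 3 cannot give p under 0.10, so none of these can pass 0.05.

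**Figure D4:**
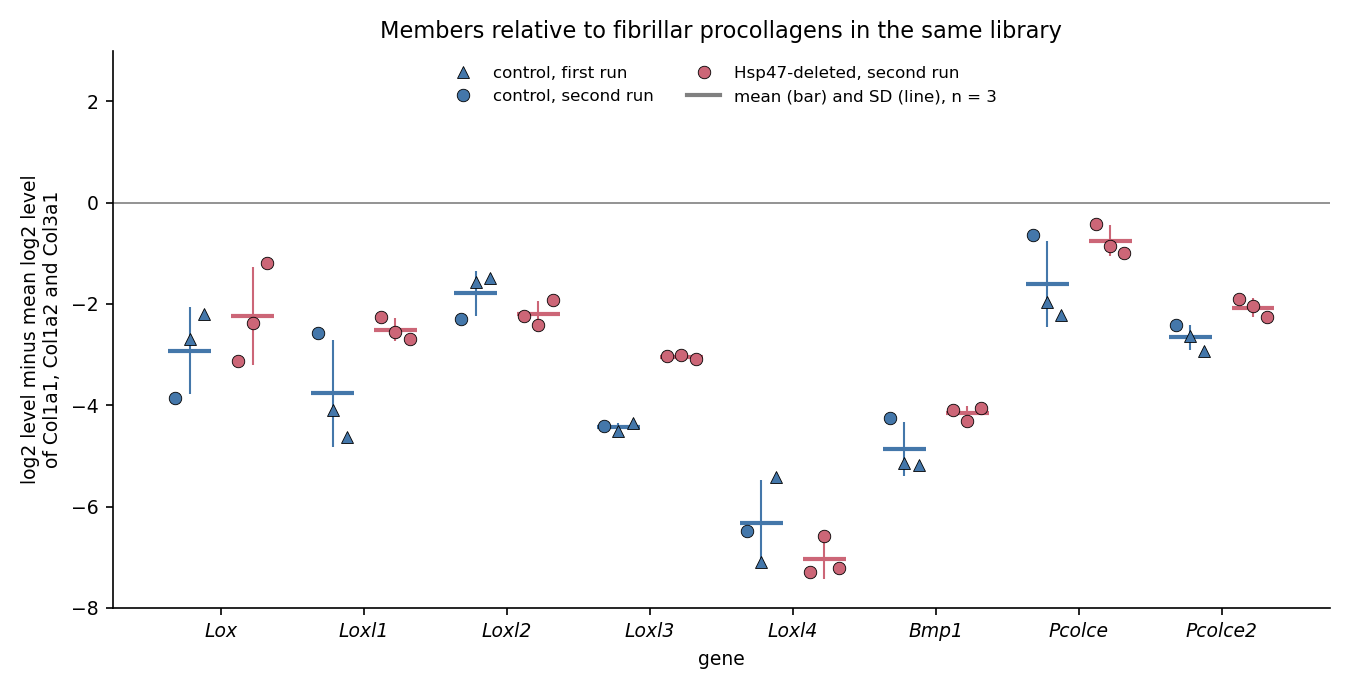
Log2 level of each gene minus the mean log2 level of *Col1a1*, *Col1a2* and *Col3a1* in the same library (vertical axis), with triangles for the first run, circles for the second, bars for group means and lines for the SD. *Loxl3* lies between -4.50 and -4.36 in the controls and between -3.09 and -3.02 in the Hsp47-deleted libraries, whereas *Loxl1*, *Bmp1* and *Pcolce* in the second-run control sit with the Hsp47-deleted libraries.

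Across the 6 libraries, each centred on its median, the members fell into sets that varied together. *Loxl1* had a Pearson r of 0.99 with *Bmp1* and 0.99 with *Pcolce*, and *Bmp1* had one of 0.97 with *Pcolce*. *Pcolce2* had an r of 0.86 to 0.89 with these 3 genes, whereas centred *Loxl2* ran opposite to them, with -0.89 to -0.93. As deposited, *Loxl2* moved little, from 6.92 to 7.43, while the subtracted medians ran from 2.75 to 3.43. Its centred course therefore depends heavily on those medians, and r without centring was not computed. *Lox* and *Loxl4* stood apart, with r to the other members between -0.35 and 0.37 for *Lox* and between -0.48 and 0.35 for *Loxl4*. *Loxl3* had its highest r with *Pcolce2* (0.83). These values describe 6 libraries that share runs and group labels and carry no test. The gene outside the family whose pattern was most like a member was *Myo1d* for *Lox* (r = 0.996), *Tmem167b* for *Loxl1* (0.999), *Tmbim4* for *Loxl2* (0.998), *Gm14305* for *Loxl3* (0.996), *Gm14051* for *Loxl4* (0.988), *Pdlim3* for *Bmp1* (0.999), *Ephx1* for *Pcolce* (0.999) and *Fam124a* for *Pcolce2* (0.995). With so few libraries such values are common: 579 of 15101 genes had an r over 0.95 with *Loxl1* and 615 with *Pcolce*, against 53 with *Lox*, 65 with *Loxl3* and 9 with *Loxl4*.

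The deposited table also lists, for each gene, names of microRNAs, and miR-29, which is known to target collagen and other matrix mRNAs in cardiac fibroblasts, was looked up after the members' values were known. It was listed for 5 of the 8 members (*Lox*, *Loxl2*, *Loxl4*, *Bmp1* and *Pcolce2*), against 22.7% of tested genes. The mature miR-29 sequences (RefSeq, GRCm38.p6) share their seed, bases 2 to 8, shown in capitals.
mmu-miR-29a-3p: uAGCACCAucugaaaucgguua
mmu-miR-29b-3p: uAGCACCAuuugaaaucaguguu
mmu-miR-29c-3p: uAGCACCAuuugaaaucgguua
The reverse complement of the seed, TGGTGCT, was searched on the transcribed strand of the 3′ UTR of the longest coding transcript (GENCODE M21, GRCm38). It occurred 3 times in *Lox*, 2 times in *Loxl2*, 1 time in *Loxl4* and not in the other 5 members, against 15.3% of tested genes with at least 1 match. The *Loxl2* and *Loxl4* matches are shown in capitals with the bases around them.
*Loxl2*, chr14:69694738-69694764, plus strand: gctcatggaaTGGTGCTactggtgtct
*Loxl2*, chr14:69695100-69695126, plus strand: gcattgtgaaTGGTGCTaatatagggt
*Loxl4*, chr19:42595011-42595037, minus strand: cccctctaagTGGTGCTttgcaaatgt
The members with a match had pooled differences of 1.13 (*Lox*), 0.038 (*Loxl2*) and -0.26 (*Loxl4*), and the 5 without had 1.03 to 1.82. Against the second-run control the former were at 1.87, 0.35 and -0.31, and the 5 without at 0.12 to 1.61. The searched 3′ UTRs ran from 60 bases (*Pcolce*) to 3160 bases (*Lox*), and no allowance was made for length. Whether matches go with the differences was not tested. These letters mark matches and not sites shown to be bound, and the microRNAs themselves were not analysed here.

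The wider crosslinking and procollagen processing pathway was taken as a list of 37 genes, of which 31 could be tested. It was chosen with earlier results of these data known, and the paper reports *Postn*, *Fmod* and *Furin* as induced. The counts below therefore describe the list and do not test it. By RT-PCR of sorted EGFP+ cells the paper also reports lower *Col1a1*, *Col3a1* and fibronectin mRNA with the deletion. Here *Col1a1*, *Col3a1* and *Fn1*, the fibronectin gene, were instead higher, by 0.67, 0.14 and 0.86 (limma, BH-adjusted p = 0.374, 0.852 and 0.294). Against the second-run control they differed by 0.38, -0.039 and 0.99. The cause of this disagreement was not tested. Of the 31 genes, 25 had a difference above 0, against 74.5% of all tested genes. At an unadjusted limma p under 0.05, 13 were higher and 0 lower, against 14.5% and 0.755%, and 2 passed a BH-adjusted p of 0.05, against 0.245%. The median difference was 0.84, against 0.35 over all tested genes, and 0.34 relative to the second-run control, against 0.29. Both genes that passed encode extracellular partners. *Postn* encodes periostin, a matricellular protein that binds Bmp1, and rose by 4.41 (limma, BH-adjusted p = 0.00337). It lay between 5.86 and 6.12 in controls and between 10.22 and 10.50 in Hsp47-deleted libraries. The *Postn* locus carries the Cre knock-in in all mice, and which allele the reads came from was not tested. *Fmod* encodes fibromodulin, a small proteoglycan that binds collagen and Lox, and rose by 2.42 (limma, BH-adjusted p = 0.0485). It lay between 6.19 and 6.82 in controls and between 8.50 and 9.17 in Hsp47-deleted libraries. Against the second-run control they differed by 4.24 and 2.45. With run as a covariate *Postn* still passed (limma, BH-adjusted p = 0.00202), whereas the call of *Fmod* was lost (0.108). Over the 16 alternatives with a test, the adjusted p ran from 0.0003 to 0.187 for *Postn*, under 0.05 in 15, and from 0.00559 to 0.32 for *Fmod*, under 0.05 in only 5. All 8 extracellular partners had differences above 0, as 74.5% of tested genes did, and 6 were higher at an unadjusted p under 0.05, as 14.5% were. *Sfrp2*, singled out after its values were seen because it encodes a secreted frizzled-related protein that binds Bmp1, was at 5.39 to 5.78 in controls and 7.30 to 8.08 in Hsp47-deleted libraries, a difference of 1.99 (limma, BH-adjusted p = 0.072). Against the second-run control it differed by 1.96 (run as a covariate, limma, BH-adjusted p = 0.218).

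In the other roles of the pathway no gene passed the BH-adjusted limma p of 0.05. Among 7 substrates, 6 were above 0, with a median of 0.67, and the 2 of smallest p were *Col5a2*, a chain of collagen type V (0.84, limma, BH-adjusted p = 0.283), and *Eln*, the elastin gene (2.50, BH-adjusted p = 0.334). *Eln* followed the run, at 4.99 in the second-run control, 1.30 and 0.47 in the first-run controls and 3.56 to 5.39 in Hsp47-deleted libraries, and was at -0.23 against the second-run control. Among 7 genes of lysine hydroxylation and glycosylation, 6 were above 0, led by *Fkbp10*, a prolyl isomerase needed for telopeptide lysine hydroxylation (1.13, limma, BH-adjusted p = 0.283), and the lysyl hydroxylase *Plod3* (0.83, BH-adjusted p = 0.306). *Plod2*, the telopeptide lysyl hydroxylase, also singled out after its values were seen, differed by -0.19 overall and by 1.15 from the second-run control, so that like *Lox* it was lowest in that control. Of the 3 tested copper supply genes, the copper chaperone *Atox1* differed by 1.86 (limma, BH-adjusted p = 0.306) but by 0.19 from the second-run control, and the copper importer *Slc31a1* by -0.55 (BH-adjusted p = 0.560). Among 5 other proteinases, *Furin*, the convertase that activates Bmp1, differed by 0.96 (limma, BH-adjusted p = 0.276) and by 1.02 from the second-run control, and the procollagen N-proteinase *Adamts2* by 0.92 and 0.05. *Tgm2*, the transglutaminase that crosslinks matrix through glutamine, was the only gene of the list whose groups did not overlap with Hsp47-deleted libraries lower, by -0.45 (limma, BH-adjusted p = 0.475), where 1.5% of all tested genes did so.

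**Figure D5:**
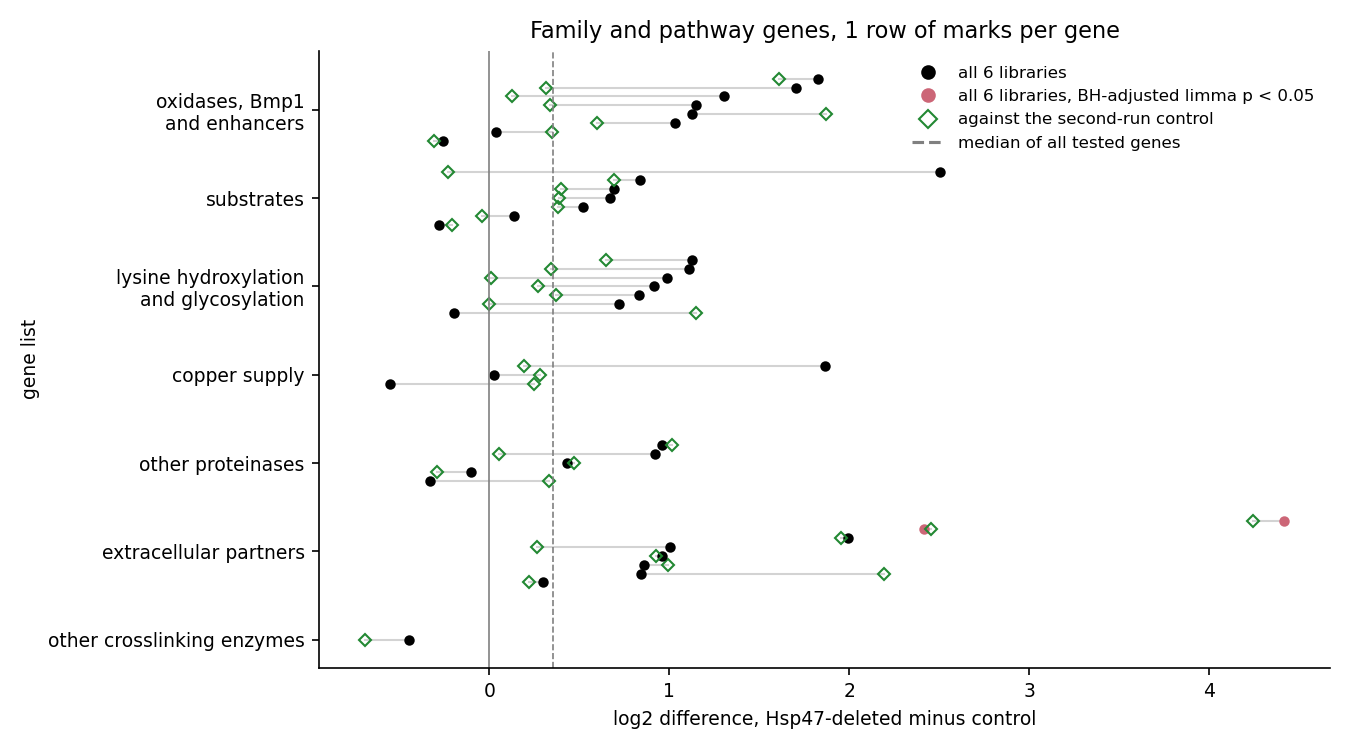
Log2 difference, Hsp47-deleted minus control (horizontal axis), of the 8 family members and the 31 tested pathway genes grouped by role (vertical axis), from all 6 libraries (circles, red where the BH-adjusted limma p is under 0.05) and against the second-run control alone (open green diamonds). *Postn* (4.41) and *Fmod* (2.42) are the only red circles, with diamonds at 4.24 and 2.45, and the *Fmod* call is lost with run as a covariate (limma, BH-adjusted p = 0.108). The diamonds of *Eln* and *Atox1* lie at -0.23 and 0.19, far from their circles at 2.50 and 1.86.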

How the data were processed

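The authors deposited 1 table of log2(value + 1) per gene and library. The submitters' processing notes name kallisto and mm10 without versions, and the paper names AltAnalyze. RNA was amplified before library construction. Replicates were not pooled. The authors' group means and their own comparison columns (folds, p-values) were not used. All 6 library columns were matched to the labels, and 0 were left unmatched. Values were used as deposited, with their pseudocount of 1, and genes with a linear mean of at least 1 were tested (15109, with 13878 left out) with limma 3.58.1 in R 4.3.3 (lmFit, eBayes with trend, no covariate) and Benjamini-Hochberg adjustment over all tested genes. The fit was tested on simulated data that held no run effect and no shift shared by all genes, so that test does not cover either. Shares and member-minus-collagen values were compared by exact two-sided permutation (Python 3.11.15, scipy 1.17.1). Differences keep the pseudocount, so those of low genes are understated. Alternatives were run as a covariate, the second run alone, the replicate block, other filters (none, at least 5) and pseudocounts (0.1, 5), quantile normalization, centring, eBayes without trend or robust (statmod 1.5.0), and leaving out each library. Text names all 8 members, the 2 pathway genes of smallest p in each role, *Serpinh1* and each member's closest gene by Pearson r. *Sfrp2* and *Plod2* were added after their values were seen, and *Htra2* and *Gm21451* because they share sequence with a member. Single cell-type markers were also named after their values were seen. Members and lists were chosen with earlier results of these data known. Positions are from GENCODE M21 (GRCm38). Tamoxifen doses are those of the labels, and the paper gives other doses.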

Additional observations from a re-analysis of the deposited data

How the results depend on the processing

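The number of libraries, the split of runs and the unknown depth limit these results. With 1 control in the second run, a difference from it has no replicate among controls. Directions of *Lox*, *Loxl1*, *Loxl3*, *Bmp1*, *Pcolce* and *Pcolce2* were above 0 in all 17 alternatives. These are not 17 separate checks. The other filters and eBayes without trend or robust leave a member's difference unchanged, and the second run alone gives the same difference as run as a covariate. *Loxl2* was -0.38 with centring, -0.42 with quantile normalization and -0.12 to 0.14 when single libraries were left out, and *Loxl4* was 0.28 with the replicate block and -0.70 to 0.16 when single libraries were left out. The 37 genes called became 18 with centring, 17 with quantile normalization, 16 with a pseudocount of 0.1, 0 with the replicate block (limma; 1544 at an unadjusted p under 0.05) and 8 to 2768 when single libraries were left out, the highest without control replicate 2. The 5 members higher at an unadjusted p under 0.05 became 1 with centring, 1 with quantile normalization, 3 without a filter, 3 with the block, 2 with run as a covariate, and 1 to 5 when single libraries were left out. The family median of 1.14 became 0.72 with centring, 0.74 with quantile normalization and 0.34 with the second run alone or run as a covariate. The pathway median of 0.84 became 0.42, 0.36 and 0.34 in the same settings. In the second run alone, the share of *Loxl1* differed by -9.81 percentage points and that of *Loxl2* by -12.4, and the level relative to collagens by 1.63 (*Lox*), 0.074 (*Loxl1*), 0.11 (*Loxl2*), 0.093 (*Bmp1*), -0.12 (*Pcolce*) and 0.35 (*Pcolce2*). With a pseudocount of 5 it was 1.23 for *Loxl3*. The cause of these changes was not tested, apart from the libraries or scaling each setting alters. With the replicate block the BH-adjusted limma p of *Postn* was 0.187, the highest of its alternatives. In that fit only the libraries numbered 2 and 3 bear on the group difference, since every other replicate number occurs in a single group. Very little is then left to estimate the spread, so the loss of calls there follows in part from the design. The replicate numbers 2 and 3 occur in both groups, but the same-numbered libraries shared only a number: the correlations of their deviations from the group means were 0.16 and 0.23, and control replicate 2 deviated most like Hsp47-deleted replicate 1 (0.38).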
